A study of Mus musculus with 8 samples.

Results

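Cirbp, Rbm3, Clk1, Clk2, Clk3 and Clk4 were followed in single-cell RNA-seq of SN4741 cells. These 6 genes, of the 31053 in the deposited matrices, are taken by symbol, for what is known of their response to small shifts of temperature. The rule uses no measured value, but the genes were picked with earlier results of these data known. SN4741 is a mouse neural precursor line (genotype WT per the labels) that divides without limit through a viral T antigen, which the study describes as less active at 39 °C. Per the study, its karyotype is polyploid and unstable. There were 4 libraries from cells grown at 37 °C with 10% serum, the permissive condition, and 4 from cells moved to 39 °C with 0.5% serum for 48 hours, the non-permissive condition. Temperature, serum and, by that description, T antigen activity thus changed together and cannot be told apart. T antigen activity was not measured here. The labels do not say whether the replicates came from separate cultures, so p-values speak for these libraries only.

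Cirbp and Rbm3 are small glycine-rich RNA-binding proteins with a single RNA recognition motif. Both are known as cold-inducible: their transcripts rise when mammalian cells are cooled mildly below body temperature and fall on warming, and both proteins bind other transcripts and alter their stability, polyadenylation or translation. The CDC2-like kinases Clk1 to Clk4 phosphorylate SR proteins, the serine- and arginine-rich splicing factors, and the activity of these kinases is known to depend on temperature within the range of body temperatures. Part of the Clk1 and Clk4 transcripts is known to be held in the nucleus with introns retained. Counts from the 3' end of transcripts do not separate such forms, or any isoforms.

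Sequences upstream of RefSeq start sites (build GRCm38.p6) were matched for 4 of the 6 genes, and not for Rbm3 or Clk1. They are shown because the known cold response of Cirbp involves a short element in its promoter, the mild-cold responsive element TCCCCGCC, which the factor Sp1 can bind. Each of the windows held the 250 bases before a start site. By the gene bounds given below, the Clk2 window lies just before its gene. The Cirbp, Clk3 and Clk4 windows lie inside theirs, before internal start sites. Both strands were searched for that element, the GC box GGGCGG, the cyclic AMP response element TGACGTCA and the paired heat shock element cores GAANNTTC and TTCNNGAA, and matches are in capitals below. Stretches annotated as untranslated regions were left out of the printed sequence, which shortened the first Cirbp window and the Clk4 window.
Cirbp, first start site, chr10:80167589-80167777, plus strand: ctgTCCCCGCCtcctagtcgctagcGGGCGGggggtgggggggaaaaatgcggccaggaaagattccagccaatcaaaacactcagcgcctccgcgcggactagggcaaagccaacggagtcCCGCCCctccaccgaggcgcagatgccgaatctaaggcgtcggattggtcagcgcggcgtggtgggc
Clk2, chr3:89164545-89164794, plus strand: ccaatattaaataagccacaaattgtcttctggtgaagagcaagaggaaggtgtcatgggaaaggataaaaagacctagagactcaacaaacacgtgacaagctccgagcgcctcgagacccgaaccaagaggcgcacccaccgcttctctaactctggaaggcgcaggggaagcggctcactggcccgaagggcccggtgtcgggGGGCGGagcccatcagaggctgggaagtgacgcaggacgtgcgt
Clk3, chr9:57765115-57765364, minus strand: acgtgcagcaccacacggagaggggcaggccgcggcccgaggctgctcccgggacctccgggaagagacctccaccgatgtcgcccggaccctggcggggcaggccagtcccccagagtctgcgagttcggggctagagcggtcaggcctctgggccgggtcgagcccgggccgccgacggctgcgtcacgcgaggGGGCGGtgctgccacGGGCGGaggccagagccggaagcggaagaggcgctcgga
Clk4, chr11:51263047-51263113, plus strand: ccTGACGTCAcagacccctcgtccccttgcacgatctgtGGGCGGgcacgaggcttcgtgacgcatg

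The first Cirbp window held 1 match to the mild-cold responsive element, 247 bases before the start, and no other of these windows held one. Of all 32851 windows of this length, 4.64% held the element. The GC box, whose letters do not overlap that match, was found 3 times in the first Cirbp window, 4 times before the second Cirbp start site (chr10:80167921-80168170, not printed), 2 times for Clk3 and 1 time each for Clk2 and Clk4, while 32.7% of all windows held at least 1. The Clk4 window alone held the cyclic AMP response element (1.55% of all windows). None of the windows of these 4 genes held either heat shock core, which stood in 6.69% and 7.17% of all windows. A match is a description of the letters and not evidence of binding.

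Filtering kept 18351 of the 19125 cells, of which 8550 came from 37 °C and 9801 from 39 °C. Each library held 17166686 to 29633818 unique molecular identifiers (UMIs), each of which stands for a transcript molecule that was captured. The first library at 39 °C was the smallest, with 985 cells. Median UMIs per cell ranged from 9839 to 15413 over the libraries at 37 °C and from 6676 to 16665 at 39 °C, and the median mitochondrial share of UMIs from 7.55% to 7.89% and from 8.04% to 8.85%. The part of these differences in the results was not tested. Of the markers of neural precursors, 3 of 7 reached 1 CPM (UMIs scaled to a common total per library) in every library (Nes, Sox2 and Vim), while Sox1, Pax6, Msi1 and Fabp7 stayed near 0. Of the mesenchymal markers, 4 of 5 reached it, with summed levels of 1987 to 2053 CPM at 37 °C and 792 to 817 CPM at 39 °C, whereas 0 of 5 glial markers (summed levels of at most 0.966 CPM) and 0 of 2 endothelial markers (at most 0.757 CPM) did. Of the neuronal markers, Map2 and Tubb3 (2 of 5) reached it, with summed levels of 62.9 to 67.8 CPM and 37.7 to 39.5 CPM, and Rbfox3, Snap25 and Syt1 were near 0. Of the immune markers, 1 of 2 did (Cd68, while Ptprc was near 0), with summed levels of 15.1 to 18.1 CPM and 26.4 to 34.4 CPM.

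Across all kept cells, Rbm3 was the member that differed most between the temperatures, and it was lower at 39 °C, while Clk1, Clk3 and Clk4 were higher and Cirbp and Clk2 did not pass the test. The test was edgeR's quasi-likelihood test on UMIs summed per library, with Benjamini-Hochberg adjustment over 15810 genes, and a gene passed at an adjusted p under 0.05. So many genes differed between the conditions that 62% of all genes tested passed, 31.5% higher and 30.5% lower at 39 °C. Against this, 4 of the 6 genes passed, 3 higher and 1 lower. Their median log2 fold change was 0.19, beside 0.02 over all genes. With a log2 fold change over 0.5 in size also required, 1 of the 6 (Rbm3) passed, beside 33% of all genes.

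**Figure D1:**
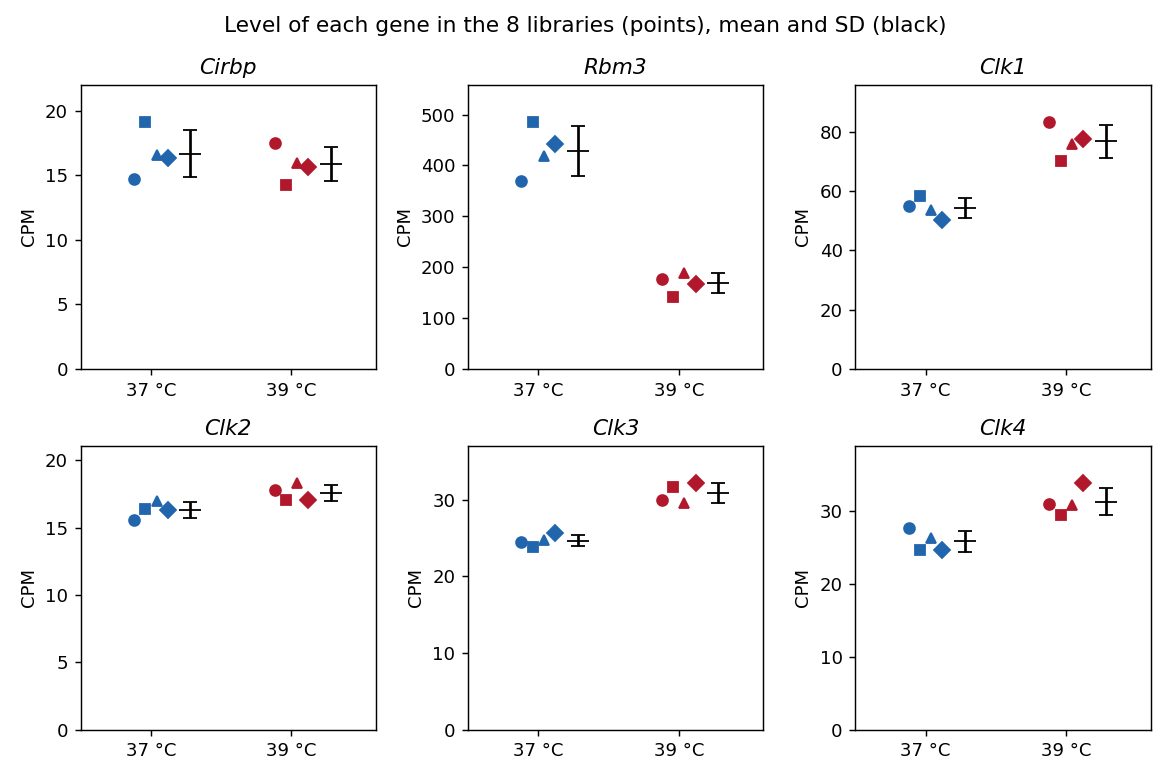
Level of each gene in CPM (vertical axes from 0, a separate scale per gene) in the 4 libraries at 37 °C (blue) and the 4 at 39 °C (red). The marker shape gives the replicate number, and black bars give mean and SD. Rbm3 lies between 369 and 486 CPM at 37 °C and between 142 and 189 CPM at 39 °C, while the libraries of Cirbp overlap.

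Rbm3, named for its RNA-binding motif, lies on chromosome X from 8138975 to 8145880 (minus strand). Its level at 37 °C was 369, 486, 418 and 442 CPM in replicates 1 to 4. At 39 °C it was 177, 142, 189 and 167 CPM. The highest library at 39 °C thus held less of the transcript than the lowest at 37 °C, and the spread within a temperature was about the same in proportion, with coefficients of variation of 11.4% and 11.9%. The means were 429 ± 48.8 and 169 ± 20.05 CPM (SD, n = 4). The log2 fold change was -1.35 (SE 0.08, adjusted p = 3.80e-11 in edgeR), which left 0.393 of the level at 37 °C. Of all genes tested, 6.10% had a lower fold change. The antisense gene Rbm3os overlaps Rbm3 on the other strand and was counted at 0.512 ± 0.0774 and 0.533 ± 0.220 CPM (SD, n = 4), far below Rbm3 in both conditions.

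Cirbp, the other cold-inducible member, lies on chromosome 10 from 80165985 to 80172786 (plus strand). Its level was 14.7, 19.1, 16.6 and 16.4 CPM in the 4 libraries at 37 °C. It was 17.5, 14.3, 16.001 and 15.7 CPM at 39 °C. The groups overlapped, with the highest library at 37 °C and the next highest at 39 °C. The means were 16.7 ± 1.83 and 15.9 ± 1.34 CPM (SD, n = 4), and they differed by -0.08 on the log2 scale (SE 0.08, adjusted p = 0.399 in edgeR). Its 95% interval ran from -0.23 to 0.07, so a change of the size seen for Rbm3 lay outside it.

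Because Cirbp and Rbm3 are counted in the same libraries, their ratio does not depend on how libraries are scaled. There were 25.1, 25.4, 25.2 and 27.05 Rbm3 UMIs per Cirbp UMI at 37 °C. At 39 °C the ratio was 10.1, 9.94, 11.8 and 10.6. The ranges lay far apart, and the log2 ratio differed by -1.28 (two-sided exact permutation test, p = 0.0286, adjusted p = 0.0381 over 4 ratios). This p is the smallest that 4 libraries against 4 allow. Without the second, the next or the last library at 37 °C the difference was -1.28, -1.28 and -1.25. The exact permutation p stayed at 0.0286 in each, the smallest possible there. The adjusted p was 0.0571, since it also depends on the p of the other ratios. Since the ratios were chosen after their values were seen, the test describes the separation of these libraries only.

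Clk1, a kinase of the SR splicing factors that also acts on its own transcript's splicing, lies on chromosome 1 from 58410189 to 58424066 (minus strand). Its level was 54.9, 58.4, 53.6 and 50.1 CPM at 37 °C. At 39 °C it was 83.3, 70.1, 75.9 and 77.6 CPM. Every library at 39 °C was above every library at 37 °C. The means of 54.3 ± 3.44 and 76.7 ± 5.43 CPM (SD, n = 4) gave a 1.41-fold rise, or 0.50 on the log2 scale (SE 0.06, adjusted p = 2.36e-07 in edgeR), which was just under the size limit of 0.5.

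Clk4, the closest relative of Clk1, lies on chromosome 11 from 51261730 to 51281766 (plus strand). In replicates 1 to 4 at 37 °C it was at 27.7, 24.7, 26.4 and 24.6 CPM. At 39 °C it was at 31.0, 29.5, 30.9 and 33.9 CPM. The groups again did not overlap, but the rise was smaller than that of Clk1. It came to 1.21-fold, from 25.9 ± 1.46 to 31.3 ± 1.85 CPM (SD, n = 4), or 0.28 on the log2 scale (SE 0.06, adjusted p = 2.48e-04 in edgeR). BC049762, which overlaps the first part of Clk4 on the other strand, was at 0.409 ± 0.0780 and 0.440 ± 0.149 CPM (SD, n = 4).

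Clk3, a further SR protein kinase, lies on chromosome 9 from 57750624 to 57765860 (minus strand). Its libraries at 37 °C were at 24.4, 23.8, 24.7 and 25.6 CPM. Those at 39 °C were at 29.9, 31.7, 29.6 and 32.2 CPM. Within a temperature the libraries lay close together, with a coefficient of variation of 2.97% at 37 °C. Clk3 rose 1.25-fold, from 24.7 ± 0.732 to 30.8 ± 1.30 CPM (SD, n = 4), or 0.32 on the log2 scale (SE 0.05, adjusted p = 1.20e-05 in edgeR). Edc3, which overlaps the end of Clk3 on the other strand, was at 12.2 ± 0.641 and 11.8 ± 0.811 CPM (SD, n = 4) and did not pass the test (log2 fold change -0.03, adjusted p = 0.703). Whether the counting used strand is not given in the sources used here, so reads of overlapping genes may not be fully told apart.

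Clk2, the fourth kinase of the family, lies on chromosome 3 from 89164795 to 89176921 (plus strand). It was at 15.6, 16.4, 17.0 and 16.3 CPM at 37 °C. At 39 °C the libraries held 17.8, 17.1, 18.3 and 17.1 CPM. The groups just failed to overlap, with 17.0 CPM as the highest value at 37 °C and 17.1 CPM as the lowest at 39 °C. The means were 16.3 ± 0.588 and 17.6 ± 0.616 CPM (SD, n = 4). Their difference of 0.11 on the log2 scale (SE 0.06, 95% interval -0.00 to 0.22) did not pass (adjusted p = 0.102 in edgeR). With other scaling it passed: the log2 fold change was 0.13 with upper-quartile factors (adjusted p = 0.0473) and 0.14 with library totals (adjusted p = 0.0454). In all, 5 of the 6 genes had groups that did not overlap, as did 56.7% of all genes tested.

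The CLK genes were also set against each other within libraries, since the 4 kinases share the SR proteins as substrates. There were 3.53, 3.57, 3.15 and 3.07 Clk1 UMIs per Clk2 UMI at 37 °C, and 4.68, 4.11, 4.14 and 4.54 at 39 °C, a difference of 0.39 in the log2 ratio (two-sided exact permutation test, p = 0.0286, adjusted p = 0.0381). The ratio of Clk3 to Clk2 rose by 0.21 on the log2 scale (exact permutation p = 0.0286, adjusted p = 0.0381). It lay between 1.46 and 1.57 at 37 °C and between 1.61 and 1.88 at 39 °C. This was not past the threshold with cells thinned to 5000 UMIs (0.21, exact permutation p = 0.143, adjusted p = 0.143) or in cells without a Mki67 UMI (0.32, adjusted p = 0.0762). That of Clk4 to Clk2 differed by 0.17 (exact permutation p = 0.114, adjusted p = 0.114), with 1 library at 37 °C (1.78) above 3 of the 4 at 39 °C. Without that library, the first replicate at 37 °C, its difference was 0.23 (adjusted p = 0.0381). Over all cells, Clk1 and Clk3 thus rose relative to Clk2, but in the cells with a Mki67 UMI the differences had the other sign: -0.12 for Clk1 (exact permutation p = 0.2, adjusted p = 0.2), -0.25 for Clk3 (0.114 and 0.152) and -0.36 for Clk4 (0.0286 and 0.0571). With 1 library at 37 °C left out, the adjusted p was 0.0571 for Clk1 (without replicate 2, 3 or 4, differences 0.43, 0.37 and 0.35) and 0.0571 to 0.0762 for Clk3 (without any of the 4, differences 0.20 to 0.23). The exact permutation p before adjustment stayed at 0.0286 for Clk1 and was 0.0571 for Clk3 in these settings.

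The genes were also counted per cell, as a description with no test. Each cell was thinned to 5000 UMIs so that depth was equal, which left out 668 cells at 37 °C and 1668 at 39 °C. The share of cells with at least 1 Rbm3 UMI was then 84.8 ± 4.03% at 37 °C and 54.7 ± 2.65% at 39 °C (SD, n = 4), against 94.7 ± 2.96% and 72.9 ± 12.1% before thinning. For Clk1 the thinned shares were 23.4 ± 2.10% and 31.4 ± 0.919%, with no overlap between the groups. Before thinning, they were 47.6 ± 7.99% and 52.1 ± 13.3% and overlapped. For the other members the shares were low, near the level at which most positive cells hold 1 UMI: 8.37% and 8.08% for Cirbp, 8.19% and 8.47% for Clk2, 11.4% and 13.7% for Clk3 and 12.1% and 14.6% for Clk4. The thinned groups of Clk3 (10.5 to 11.8% and 12.6 to 14.7%) and Clk4 (11.9 to 12.3% and 14.0 to 15.3%) did not overlap. Those of Cirbp and Clk2 did. Before thinning, the shares of these members were 19.8% and 15.9%, 19.4% and 17.7%, 26.9% and 27.2%, and 28.3% and 28.2%. They are given in the order Cirbp, Clk2, Clk3 and Clk4, and all overlapped. All cells came from the same line, so no class of cells known to lack these genes was there to set the background of free RNA.

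The cells were then divided by Mki67, which encodes a protein of proliferating cells. At least 1 Mki67 UMI was found in 56.0 ± 3.55% of cells at 37 °C and in 6.26 ± 0.842% at 39 °C (SD, n = 4; difference -49.7 percentage points, two-sided exact permutation test, p = 0.0286, the smallest possible). After thinning to 5000 UMIs the shares were 44.0 ± 2.57% and 4.61 ± 0.418%. A cell without a Mki67 UMI need not have left the cell cycle, since the class is set by a single count and deeper cells are more often positive: the mean over libraries of the median UMIs was 14474 with and 10635 without a Mki67 UMI at 37 °C, and 12021 and 10350 at 39 °C. The classes did differ in other cell cycle genes. Top2a, a DNA topoisomerase of dividing cells, was at 83.0 ± 13.1 CPM without and 723 ± 20.9 CPM with a Mki67 UMI at 37 °C (SD, n = 4), and at 28.5 ± 2.51 and 427 ± 65.6 CPM at 39 °C (SD, n = 4). Only 587 cells at 39 °C held a Mki67 UMI, 73 to 190 per library, so values of this class rest on few counts (26 to 34 UMIs of Cirbp and 35 to 48 of Clk2 per library).

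**Figure D2:**
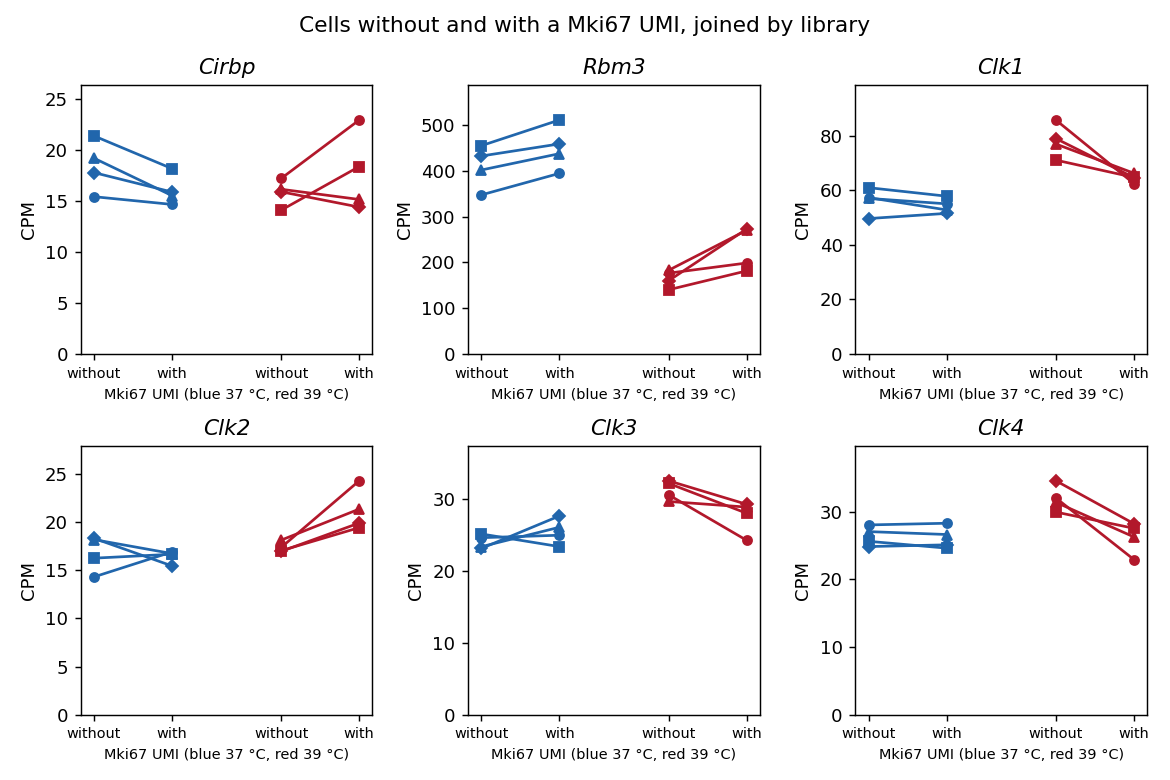
Level of each gene in CPM (vertical axes from 0) in cells without and with a Mki67 UMI, with the 2 values of a library joined by a line, at 37 °C (blue) and 39 °C (red). Rbm3 is higher in the cells with a Mki67 UMI in all 8 libraries, while at 39 °C Clk1, Clk3 and Clk4 are lower in them in 4 of 4 libraries.

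Within cells without a Mki67 UMI, the differences between temperatures followed those of all cells: Rbm3 was lower at 39 °C and Clk1, Clk3 and Clk4 were higher. Rbm3 was at 347, 455, 402 and 432 CPM at 37 °C and at 176, 140, 183 and 160 CPM at 39 °C, and differed by -1.30 on the log2 scale (SE 0.08, adjusted p = 8.59e-12 in edgeR). Clk1 was at 57.0, 61.0, 57.3 and 49.6 CPM and at 85.8, 71.1, 77.0 and 79.0 CPM, and rose by 0.49 on the log2 scale (SE 0.06, adjusted p = 1.05e-06). The groups of both genes stood apart. Clk3 rose by 0.39 (24.1 ± 0.977 to 31.3 ± 1.35 CPM, SD, n = 4, adjusted p = 8.61e-06 in edgeR) and Clk4 by 0.29 (26.4 ± 1.43 to 32.0 ± 1.93 CPM, SD, n = 4, adjusted p = 5.69e-04 in edgeR). Clk2 did not pass (0.07, adjusted p = 0.483 in edgeR).

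Cirbp in this class was at 15.4, 21.4, 19.2 and 17.8 CPM at 37 °C. At 39 °C it was at 17.2, 14.1, 16.1 and 15.9 CPM. The libraries overlapped, with the first library at 37 °C (15.4 CPM) below 3 of the 4 at 39 °C. Its log2 fold change of -0.20 lay just beyond the threshold (SE 0.09, adjusted p = 0.0525 in edgeR), and it passed without the first library at 37 °C (-0.29, adjusted p = 0.00823) or the first at 39 °C (-0.24, adjusted p = 0.0238). In all, 4 of the 6 genes passed in this class (3 higher and 1 lower), beside 56.8% of all 15040 genes tested (29.7% higher and 27.1% lower). The groups did not overlap for the same 4 genes, and for 52.9% of 14745 genes.

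Within cells with a Mki67 UMI, Rbm3 was again lower at 39 °C, and Clk1 and Clk2 were higher. Rbm3 was at 394, 511, 437 and 459 CPM at 37 °C and at 199, 181, 270 and 273 CPM at 39 °C. The groups did not overlap, and the log2 fold change was -0.94 (SE 0.10, adjusted p = 2.36e-09 in edgeR). Clk1 was at 55.0, 57.9, 52.8 and 51.5 CPM and at 62.5, 64.8, 66.3 and 64.7 CPM, a rise of 0.27 on the log2 scale (SE 0.08, adjusted p = 0.00943).

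Clk2 in the cells with a Mki67 UMI was at 16.9, 16.7, 16.7 and 15.5 CPM at 37 °C. At 39 °C it was at 24.3, 19.4, 21.4 and 19.9 CPM. All libraries at 39 °C were higher, by 0.37 on the log2 scale (SE 0.13, adjusted p = 0.0209 in edgeR). The call was lost without the first library at 39 °C (0.31, adjusted p = 0.0950) or replicate 3 (0.37, adjusted p = 0.0628), and without a limit on genes per cell (0.26, adjusted p = 0.0917). Cirbp (0.13, 95% interval -0.17 to 0.42, adjusted p = 0.561), Clk3 (0.14, -0.08 to 0.36, 0.367) and Clk4 (0.03, -0.19 to 0.25, 0.888) did not pass, with the interval and edgeR's adjusted p given in that order. In all, 3 of the 6 genes passed (2 higher and 1 lower), beside 33.5% of the 14405 genes tested (15% higher and 18.6% lower). The groups did not overlap for these 3 genes, and for 34.8% of 14745 genes. With library totals in place of TMM factors, 59.1% of all genes that passed here were higher at 39 °C, against 44.6%, so small differences in this class depend on scaling.

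**Figure D3:**
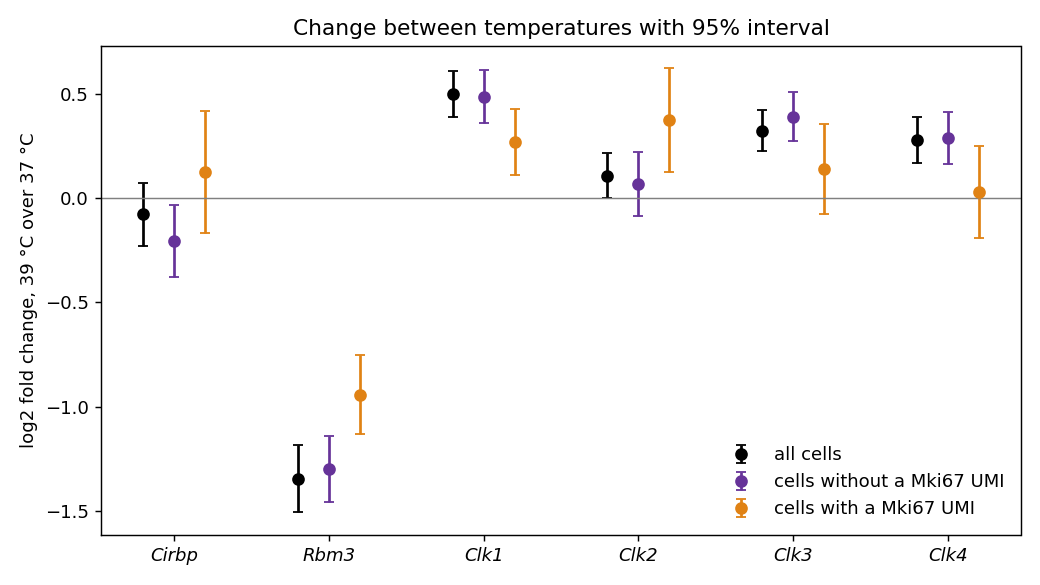
Log2 fold change of 39 °C over 37 °C for each gene (points, from edgeR) with its approximate 95% interval (bars), in all cells (black), cells without (purple) and cells with a Mki67 UMI (orange). Rbm3 lies below 0 in all 3 sets of cells (-1.35, -1.30 and -0.94), and the intervals are widest in the cells with a Mki67 UMI.

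Comparing the classes within libraries, Rbm3 was the member that was higher in cells with a Mki67 UMI at both temperatures. At 37 °C it was higher in 4 of 4 libraries, by 0.14 on the log2 scale (SE 0.03, adjusted p = 1.07e-05 in edgeR, with the library as a block). At 39 °C it was higher in 4 of 4 libraries, by 0.50 (SE 0.05, adjusted p = 1.37e-19 in edgeR). The size varied between the libraries at 39 °C. Replicate 1 held 176 CPM without and 199 CPM with a Mki67 UMI, and replicate 4 held 160 and 273 CPM. The SE and p come from the fit of all 16 sums, so they do not measure the spread of these 4 differences alone. The difference between these contrasts was itself tested and was 0.36 (SE 0.05, adjusted p = 1.58e-08 in edgeR). This SE and p come from the same fit and likewise do not measure how the contrast spread between libraries. On average, Rbm3 thus fell less between the temperatures in cells with a Mki67 UMI (-0.94) than in cells without (-1.30). In replicate 1 at 39 °C the classes differed no more in proportion than in replicate 1 at 37 °C (347 and 394 CPM). Of the 6 cell cycle genes other than Mki67, 5 passed above 0 in the test of the difference, as did 5.45% of all genes. Their median difference was 1.23. The part of cycling cells without a Mki67 UMI in the Rbm3 value was not tested. The small difference of Rbm3 between classes at 37 °C was not past the threshold under some alternatives. These were upper-quartile factors (0.06, adjusted p = 0.102), DESeq2 (0.12, adjusted p = 0.129) and thinned cells (0.07, adjusted p = 0.111). The difference of Rbm3 between classes at 39 °C passed in each of these.

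The levels of Rbm3 thus fell in the order of cells with a Mki67 UMI at 37 °C (450 ± 48.5 CPM, SD, n = 4), cells without at 37 °C (409 ± 46.6 CPM), cells with at 39 °C (231 ± 47.5 CPM) and cells without at 39 °C (165 ± 19.1 CPM). The ranges of the first and second overlapped between libraries (394 to 511 and 347 to 455 CPM) and the difference showed only within libraries. The third (181 to 273 CPM) lay below both and overlapped the last at its edge (140 to 183 CPM).

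Cirbp and some of the kinases also differed between the classes. Cirbp at 37 °C was lower in cells with a Mki67 UMI in 4 of 4 libraries, by -0.20 on the log2 scale (SE 0.07, adjusted p = 0.0288 in edgeR). It was 14.6, 18.1, 15.5 and 15.9 CPM with and 15.4, 21.4, 19.2 and 17.8 CPM without. This call was lost without replicate 2 (adjusted p = 0.106), 3 (0.172) or 4 (0.0586) at 37 °C, and with DESeq2 (0.101). At 39 °C, Cirbp was higher in 2 of 4 libraries (0.13, adjusted p = 0.534).

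At 39 °C, Clk1 was lower in cells with a Mki67 UMI in 4 of 4 libraries (-0.26, SE 0.07, adjusted p = 0.00170 in edgeR), and so was Clk4 (-0.27, SE 0.11, adjusted p = 0.0426). The Clk4 call did not hold without replicate 1, 3 or 4 at 39 °C (adjusted p = 0.147, 0.108 and 0.117), with RLE factors (0.0810), library totals (0.118) or DESeq2 (0.126), and thinning to 5000 UMIs turned its direction (0.12, adjusted p = 0.748). Clk3 was also lower in 4 of 4 libraries (-0.16, adjusted p = 0.280) and Clk2 higher in 4 of 4 (0.28, adjusted p = 0.102), neither past the threshold. At 37 °C, Clk1 (-0.05, adjusted p = 0.444), Clk2 (-0.03, 0.842), Clk3 (0.09, 0.310) and Clk4 (-0.01, 0.913) did not pass. The difference of the class contrast between temperatures did not pass for Cirbp or any of the 4 kinases, with adjusted p from 0.0787 (Clk1) to 0.195 (Clk3), so the contrasts of these genes at 37 °C and 39 °C are not shown to differ.

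Of the 6 genes, 2 passed between classes at 37 °C, 1 higher and 1 lower in cells with a Mki67 UMI, as did 35% of 14745 genes (19.8% higher and 15.3% lower). At 39 °C, 3 passed, 1 higher and 2 lower, as did 28% of genes (13.1% and 14.9%). In the difference of the contrasts, 1 passed, with a value above 0, as did 13.3% of genes (5.45% above and 7.82% below 0). The direction was the same in 4 of 4 libraries for 2 of the 6 genes at 37 °C and 5 at 39 °C, beside 46.8% and 40.1% of all genes. Which direction prevailed among all passing genes depended on scaling here. At 37 °C, 56.4% of them were higher in cells with a Mki67 UMI with TMM factors and 32.9% with upper-quartile factors. At 39 °C it was 46.8% with TMM and 57.9% with library totals, and in the difference 41.05% with TMM and 71.9% with library totals. Rbm3 at 39 °C and in the difference of the contrasts kept their sign and their side of the threshold under each scaling.

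The targets and relatives of these genes were taken as lists, given here by counts. Of the SR proteins and SR-related factors, the substrates of the CLK kinases, 14 of 15 could be tested in all cells, and 10 were lower at 39 °C, 2 higher and 2 did not pass, with a median log2 fold change of -0.59 beside 0.02 over all genes. Of all genes tested, 30.5% were lower and 31.5% higher. Srsf7 fell by 1.55 on the log2 scale (144 ± 12.99 to 49.0 ± 2.78 CPM, SD, n = 4), Srsf3 fell by 1.26 (281 ± 18.6 to 118 ± 2.74 CPM) and Srsf2 fell by 1.02 (165 ± 13.7 to 81.7 ± 2.22 CPM). The 2 that rose were Tra2a (0.65) and Srsf5 (0.33). The same list was mostly higher in cells with a Mki67 UMI within a temperature (12 higher and 1 lower of 14 at 37 °C, 7 higher and 2 lower at 39 °C), beside 19.8% and 15.3% of all genes at 37 °C and 13.1% and 14.9% at 39 °C, and the part of the share of cycling cells in the difference between temperatures was not tested. In cells without a Mki67 UMI, 8 of the 14 were lower and 2 higher at 39 °C (median -0.42, beside 27.1% lower and 29.7% higher of all genes). In cells with one, 7 were lower and 2 higher (median -0.23, beside 18.6% and 15%).

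Of the other SR protein kinases and CLK relatives (the SRPK, DYRK and HIPK families and Prpf4b), 11 of 13 could be tested, and 5 were higher at 39 °C, 3 lower and 3 did not pass (median 0.01). So 8 of 11 passed, beside 62% of all genes tested. Dyrk2, a kinase of the family next to CLK, rose by 0.99 on the log2 scale (20.7 ± 0.671 to 41.0 ± 2.58 CPM, SD, n = 4, adjusted p = 6.88e-12 in edgeR) and Hipk3 by 0.67 (23.3 ± 0.657 to 37.1 ± 1.43 CPM, adjusted p = 4.64e-10). Hipk2 fell by 0.50 (23.8 ± 0.910 to 16.8 ± 0.303 CPM, adjusted p = 6.86e-08). In cells without a Mki67 UMI the log2 fold changes were 1.14 for Dyrk2, 0.67 for Hipk3 and -0.44 for Hipk2. In cells with a Mki67 UMI they were 0.29, 0.73 and -0.50. The part of the share of cycling cells in the rise of Dyrk2 over all cells was not tested. Srpk1, the best known cytoplasmic kinase of SR proteins, differed by -0.25 (adjusted p = 2.00e-04) and Srpk2 by 0.01 (adjusted p = 0.892).

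**Figure D4:**
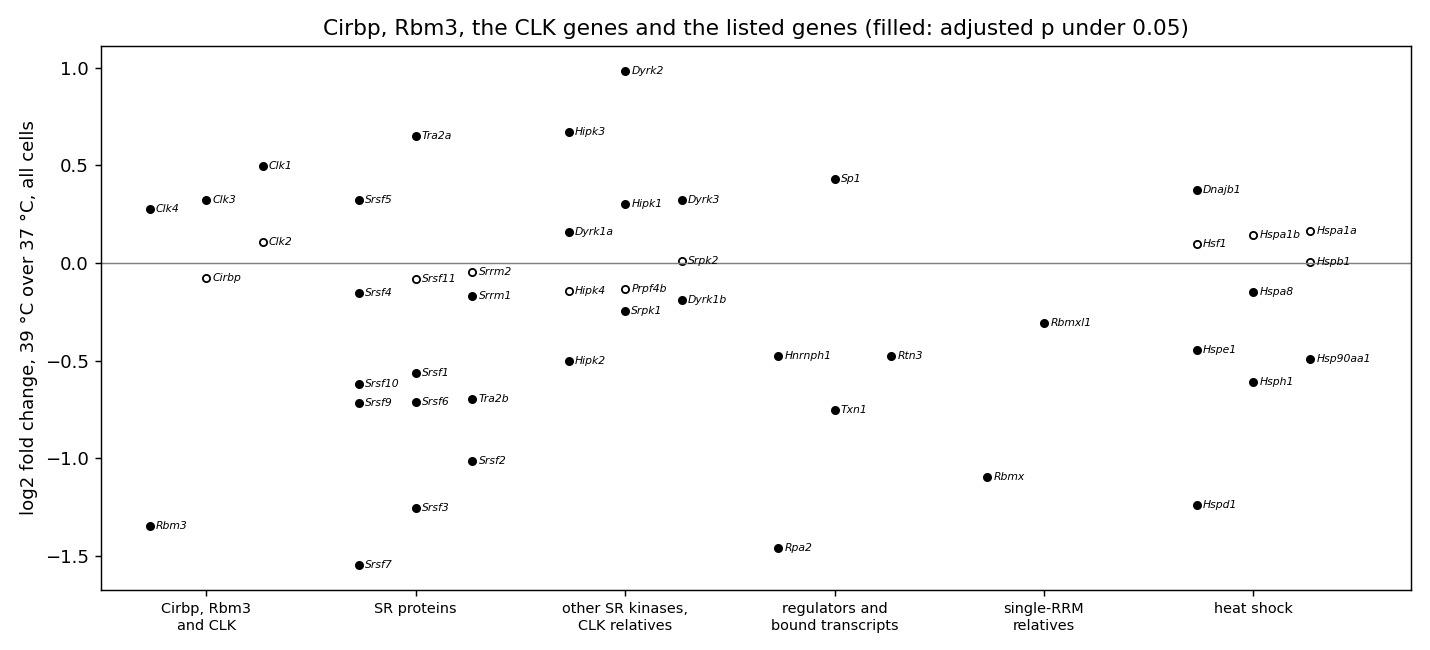
Log2 fold change of 39 °C over 37 °C in all cells (vertical axis) for Cirbp, Rbm3 and the CLK genes and for the tested genes of 5 lists (groups along the horizontal axis, points spread sideways for legibility). Filled points passed at an adjusted p under 0.05, and Ntrk2, at under 0.1 CPM, is not drawn. Rbm3 (-1.35) lies near Srsf7 (-1.55) and Srsf3 (-1.26), and Clk1, Clk3 and Clk4 lie above 0.

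Of the genes reported as regulators or bound transcripts of Cirbp and Rbm3, 4 of 6 were lower at 39 °C, 1 was higher and 1 did not pass (median -0.48), beside 30.5% lower and 31.5% higher of all genes, with a median of 0.02. Rpa2, a subunit of the single-strand DNA-binding protein of replication, fell by 1.46 on the log2 scale (39.4 ± 4.12 to 14.3 ± 1.12 CPM, SD, n = 4). Txn1, which encodes thioredoxin, fell by 0.75 (952 ± 36.1 to 564 ± 65.7 CPM) and Rtn3, a reticulon, fell by 0.48 (228 ± 4.09 to 164 ± 6.42 CPM). Sp1, the factor that binds the GC box, was the gene of this list that rose (0.43, 53.3 ± 1.95 to 71.8 ± 1.99 CPM), while Cirbp did not pass. Between classes, 5 genes of this list could be tested. In cells with a Mki67 UMI, 5 were higher at 37 °C and 4 at 39 °C, beside 19.8% and 13.1% of all genes. Rpa2 was higher by 0.54 at 37 °C and 1.22 at 39 °C. Between temperatures, the log2 fold change without and with a Mki67 UMI was -1.24 and -0.55 for Rpa2 and -0.63 and -0.51 for Txn1. It was -0.38 and -0.33 for Rtn3, -0.18 and -0.43 for Hnrnph1 and 0.55 and 0.35 for Sp1. The part of the share of cycling cells in these differences was not tested. Ntrk2, the receptor of brain-derived neurotrophic factor, had 5 UMIs at 37 °C and 3 at 39 °C.

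Of the relatives with a single RNA recognition motif, Rbmx fell by 1.10 (17.0 ± 0.995 to 8.07 ± 1.34 CPM, SD, n = 4) and Rbmxl1 fell by 0.31 (78.3 ± 6.27 to 63.3 ± 4.40 CPM), and Rbmxl2 had 0 UMIs. Rbmx was also higher in cells with a Mki67 UMI, by 0.70 at 37 °C and 0.66 at 39 °C, while Rbmxl1 did not pass (0.02 and 0.11). Heat shock genes gave 1 higher, 5 lower and 4 that did not pass of 10 (median -0.07), so 6 of 10 passed, near the 62% of all genes tested. Hspd1, the mitochondrial chaperonin, fell by 1.24 (574 ± 34.5 to 243 ± 10.7 CPM), Hsph1 fell by 0.61 and Hsp90aa1 fell by 0.49, whereas Dnajb1, a co-chaperone of Hsp70, rose by 0.37. In cells with a Mki67 UMI, 5 of the 10 were higher and 1 lower at 37 °C (19.8% and 15.3% of all genes). At 39 °C, 4 were higher and 1 lower (13.1% and 14.9%). Hspd1 was among those higher, by 0.16 and 0.47. The inducible Hsp70 genes Hspa1a (0.16, adjusted p = 0.112) and Hspa1b (0.15, adjusted p = 0.0596) and the factor Hsf1 (0.10, adjusted p = 0.139) did not pass. Hspa1a and Hspa1b are near-identical copies whose reads may not be fully told apart. The temperature-gated TRP channels were little expressed: 8 of 11 could be tested, 1 was higher, 2 lower and 5 did not pass, and Trpm4 alone reached 10 CPM (7.44 ± 0.629 to 10.7 ± 0.531 CPM, log2 fold change 0.53). All 6 cell cycle genes other than Mki67 were lower at 39 °C (median -2.88), led by Ccna2 (-3.80), Top2a (-3.02) and Ccnb1 (-3.01).

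Finally, the genes whose levels ran most like those of each member were sought over the 16 sums (8 libraries, each with and without a Mki67 UMI) among 8393 genes of at least 10 CPM, as a description. The sums share libraries and the difference between temperatures, so high correlations are common where a gene differed strongly. For Rbm3, 534 genes had a Pearson r over 0.9, led by Smarcb1 (0.979), Pebp1 (0.979) and Eif2s1 (0.977). Clk1 ran most like Serinc3 (0.963) and B3galnt2 (0.958), with 154 genes over 0.9, and Clk3 most like Midn (0.935), Exoc4 (0.929) and Cops7b (0.924). For Clk4 the nearest were Trim32 (0.893), Rnf13 (0.892) and Cacfd1 (0.892), and for Clk2 Neo1 (0.905), Nol8 (0.825) and Camkk2 (0.820). Cirbp had no gene over 0.9, and its nearest were Scarf2 (0.808), Pus7 (0.787) and Ist1 (0.757).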

How the data were processed

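Libraries were made from single SN4741 cells (10x Chromium 3', V3 chemistry). The authors aligned reads to mm10 with Cell Ranger 3.0.1 and deposited UMI counts per gene and cell as whole numbers, with no normalization. The study's limits were applied to cells: at most 15% mitochondrial UMIs (334 cells beyond it), at most 6000 genes (440) and at least 200 genes (29). No doublet caller was run. Any pair of libraries shared at most 5 barcodes, and no library was a copy of another.

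Counts were summed per library, over all cells or by Mki67 (at least 1 UMI or 0). Genes whose mean count reached 1 were tested in edgeR 4.0.16 (R 4.3.3; TMM, glmQLFit, glmQLFTest, Benjamini-Hochberg). Class contrasts came from 1 fit of 16 sums with library as a block. CPM were scaled by TMM-adjusted totals of the tested genes, and marker and raw list levels use plain totals. Standard errors are the fold change over the square root of F. Shares and ratios were tested in R by exact permutation over 70 assignments, or 35 with a library left out. Cells were filtered and summed in Python 3.11.15. The procedure was tested on simulated data. Alternatives covered scaling, filters, DESeq2 1.42.0, thinning, 2 or more Mki67 UMIs, the replicate number as a block and each library left out. Positions come from GENCODE M21 (GRCm38).

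The 6 genes and the lists were chosen with earlier results of these data known. Named were the 6 genes, up to 3 passing genes per list with the largest change and at least 10 CPM, and the 3 genes most like each, of which 1 is not reported here. Tra2a, Srsf5, Sp1, Hnrnph1, Dnajb1, Srpk1, Srpk2, Ntrk2, Rbmxl2 and the heat shock genes that did not pass were named after their values were seen, as were the 4 ratios.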

Additional observations from a re-analysis of the deposited data

Results flagged for a closer look

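Of 46 groups of 4 libraries checked for a library far from the others, 3 were flagged, where chance flags about 1 in 20. In cells with a Mki67 UMI at 37 °C, Clk2 was at 15.5 CPM in replicate 4 against 16.7 to 16.9 CPM in the others. The ratio of Rbm3 to Cirbp at 37 °C was 27.05 in replicate 4 against 25.1 to 25.4. The ratio of Clk4 to Clk2 at 37 °C was 1.78 in the first library against 1.51 to 1.55.

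The contrast between cells with and without a Mki67 UMI differed between the temperatures for Rbm3, by 0.36 on the log2 scale (adjusted p = 1.58e-08 in edgeR's test of the difference). Leaving out each library in turn gave 0.26 to 0.45. The contrast varied between libraries at 39 °C. In replicate 1 it was 176 CPM without and 199 CPM with a Mki67 UMI, against 347 and 394 CPM in replicate 1 at 37 °C. Of the 6 cell cycle genes other than Mki67, 5 also passed above 0, as did 5.45% of all genes.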

How the results depend on the processing

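Over the alternatives, 794 values kept their direction and their side of the threshold or, for counts, stayed within 1.5 times the main value, while 39 lost a call, 17 gained one, 18 changed direction and 5 counts moved further. In all cells, Rbm3, Clk1, Clk3 and Clk4 kept their calls under each alternative, with -1.43 to -1.27, 0.45 to 0.54, 0.29 to 0.34 and 0.23 to 0.31 when each library was left out. The causes of the changes that follow were not tested. All values are log2 differences unless called counts.

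Between temperatures, Clk2 in all cells came past the threshold with upper-quartile factors (0.13) and library totals (0.14). Cirbp in cells without a Mki67 UMI came past it with RLE factors (-0.23), upper-quartile factors (-0.22), filterByExpr (-0.23), no filter on low counts (-0.19), no cell filter (-0.20) and a mitochondrial limit of 10% (-0.24), and gave -0.29 to -0.13 when each library was left out, while Clk2 gave -0.00961 to 0.12. In cells with a Mki67 UMI, Clk2 lost its call with no cell filter (0.26) and no upper limit on genes (0.26). Leaving out each library there gave -0.00 to 0.20 for Cirbp (-0.00493 without 39 °C replicate 1), 0.31 to 0.41 for Clk2 and -0.00659 to 0.0686 for Clk4.

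Between classes at 37 °C, Rbm3 lost its call with upper-quartile factors (0.0564) and DESeq2 (0.12), and Cirbp with DESeq2 (-0.22), while Clk1 gained one with upper-quartile factors (-0.13). Clk4 turned to 0.00714 with no cell filter. Leaving out each library gave -0.23 to -0.16 for Cirbp, -0.12 to 0.0507 for Clk2 and -0.0245 to 0.00158 for Clk4. At 39 °C, Clk4 lost its call with RLE factors (-0.24), library totals (-0.22), no filter on low counts (-0.27), DESeq2 (-0.25) and 2 or more Mki67 UMIs (-0.23), and gave -0.32 to -0.23 when each library was left out. Clk2 gained a call there with library totals (0.33) and with 2 or more Mki67 UMIs (0.42). In the difference of the contrasts, Clk3 gained one with no cell filter (-0.33) and no upper limit on genes (-0.33), and Clk2 with 2 or more Mki67 UMIs (0.49). DESeq2 called 1266 genes there, against 1956.

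Thinning each cell to 5000 UMIs changed most. It leaves fewer counts, leaves out cells below that depth and sets the Mki67 classes anew from the thinned counts. In cells with a Mki67 UMI between temperatures, it gave -0.38 for Cirbp, 0.36 for Clk1 and 0.32 for Clk2, none past the threshold, and a count of 2278 genes (4832). Between classes at 37 °C it gave 0.0657 for Rbm3, -0.0332 for Clk3 and 0.0382 for Clk4, none past it, and 3294 genes (5166). At 39 °C it gave -0.54 for Cirbp, -0.23 for Clk1 and 0.12 for Clk4, none past it, and 2327 genes (4132). In the difference it gave -0.23 for Cirbp, 0.0112 for Clk3 and 0.0792 for Clk4, and 990 genes (1956). The ratios kept their direction when thinned, with adjusted p = 0.0571 (exact permutation) for Rbm3 to Cirbp (-1.25) and Clk1 to Clk2 (0.46) and 0.143 for Clk3 to Clk2 (0.21). The exact permutation p before adjustment was 0.0286 for Rbm3 to Cirbp and for Clk1 to Clk2.

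Without thinning, the ratios to Clk2 had the other sign in cells with a Mki67 UMI (-0.12 for Clk1, -0.25 for Clk3 and -0.36 for Clk4).

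Libraries with the same replicate number did not deviate together (correlations of -0.0341, -0.0110, 0.00335 and 0.0498, with 1 of 4 numbers at 37 °C closest to its own at 39 °C), so the numbers were not taken as pairs. With the replicate number as a block, 9617 genes passed in all cells (9803 without), 4788 in cells with (4832) and 8426 in cells without a Mki67 UMI (8548). The blocked values in all cells were -1.35 for Rbm3, 0.50 for Clk1, 0.11 for Clk2, 0.32 for Clk3, 0.28 for Clk4 and -0.08 for Cirbp, and no call of these 6 genes changed. Depth limits the cells with a Mki67 UMI at 39 °C most (1342821 to 2191676 UMIs per library).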
